A study of Danio rerio with 35 samples.

Results

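The Hippo-Yap pathway is read here through 10 genes in messenger RNA of whole adult zebrafish hearts. They are 5 parts of the pathway (yap1, wwtr1, lats2, amotl2a and amotl2b) and 5 genes known as its targets (ctgfa, cyr61, f3a, f3b and tgfb2), picked by symbol with earlier results of these data known. All 10 were among the 14781 genes of the count table, and all 10 were among the 10493 genes with enough counts to test. The hearts came from wild-type (WT) fish and from fish that overexpress klf1, a Krüppel-like zinc-finger factor of red blood cell development, with 4 libraries each. No strain, age in months, sex, transgene, promoter or duration of overexpression is given in the labels, and neither is it stated that the libraries came from separate animals, so p-values measure the spread between libraries, which may be technical.

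Hippo signalling is a kinase chain that restrains growth. Stk3 and Stk4 with their partner Sav1 activate Lats1 and Lats2 with Mob1, and these phosphorylate the coactivators Yap1 and Wwtr1 (also called Taz), which are then held in the cytoplasm. Coactivators that escape this enter the nucleus, bind Tead factors and switch on genes such as those of the CCN matrix proteins. In mice, active Yap is known to let heart muscle cells divide. The control acts mainly on proteins, which RNA counts do not measure.

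The libraries held 9829896 to 13083853 counts. klf1 itself was higher in the klf1 libraries, at 595 to 733 CPM (counts scaled to library size with edgeR's TMM factors) against 128 to 296 in WT. The hearts differed in much of the transcriptome, so the counts below need to be read beside the whole. Of all tested genes 61.6% were called, 32.2% higher and 29.4% lower in klf1. A call means a Benjamini-Hochberg adjusted p under 0.05 in edgeR's quasi-likelihood test. Heart muscle markers were abundant, as the labelled tissue requires: their summed level over 15 listed genes was 223895 to 266096 CPM in WT and 29349 to 46835 CPM in klf1 libraries, with 12 of 13 tested genes lower. In whole hearts, fewer cells of a type and less RNA per cell cannot be told apart. Scaling matters here as well. Scaled by library totals alone, the median tested gene had a log2 fold change of 0.75, against 0.03 with TMM, with 65.1% of tested genes called higher and 13.3% lower, and members whose direction or call depends on it are named.

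Of the 10 members, 6 were higher and 2 lower in klf1 hearts, beside 32.2% and 29.4% of all tested genes. All klf1 libraries lay above all WT libraries for 5 members (29.8% of all tested genes) and below them for 1 (27.2%), or 57% of all tested genes in either direction. Of the coactivator genes, yap1 was not called and wwtr1 was higher by 0.48 on the log2 scale. The inhibitors lats2, amotl2a and amotl2b all rose, by 1.69-fold to 2.61-fold. The targets split: ctgfa rose 11.0-fold and f3a 8.03-fold, f3b and tgfb2 fell, and the cyr61 row was not called. The symbol cyr61 is an older name of 2 genes, and the row of 1 of them, zgc:85866, rose 4.30-fold.

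**Figure D1:**
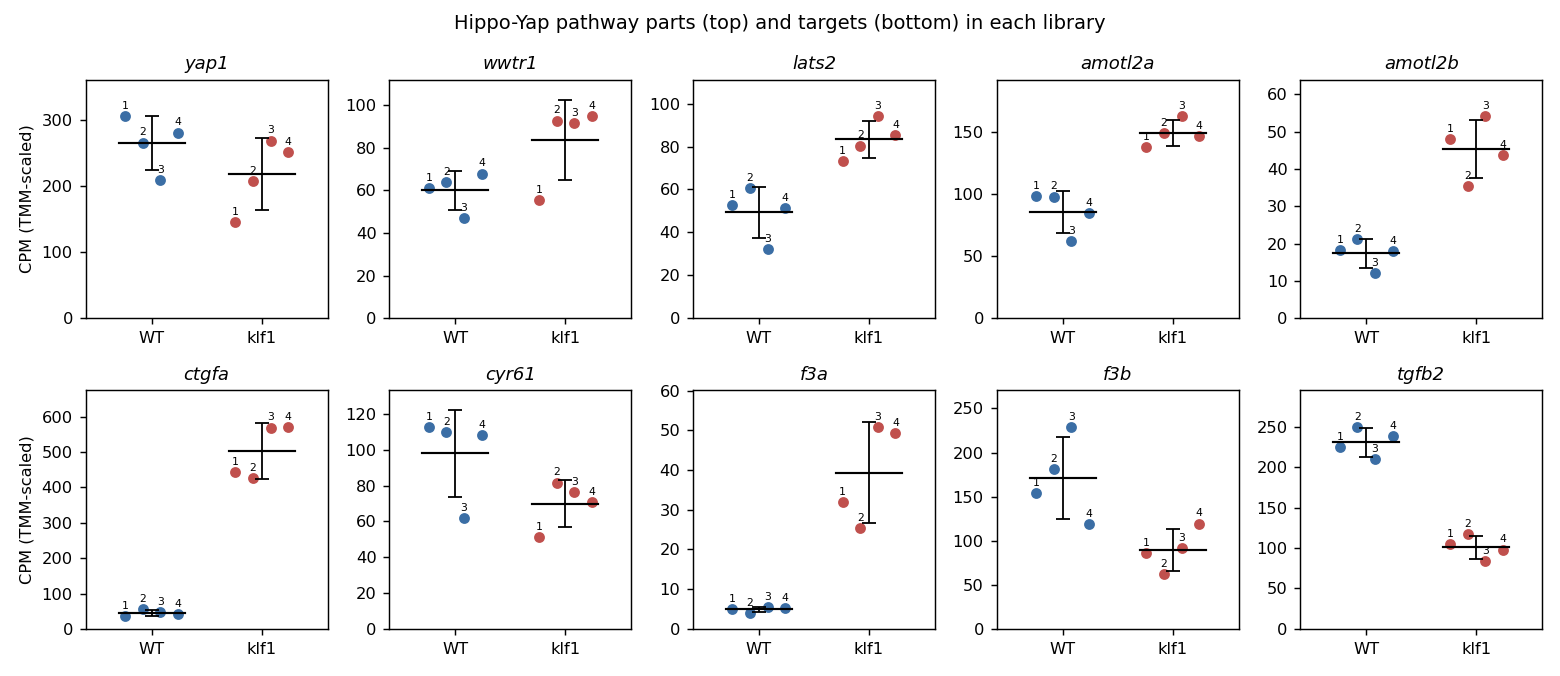
TMM-scaled CPM (y axis, from 0) of the 10 members in the 4 WT and 4 klf1 libraries. Numbers are replicates, lines are means and bars are SD. ctgfa lies at 427 to 572 CPM in klf1 and 36.7 to 56.3 CPM in WT libraries, while yap1 and cyr61 overlap between genotypes.

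yap1 encodes the coactivator that gives the pathway its name. It read 306, 266, 209 and 281 CPM in WT libraries 1 to 4 and 145, 208, 269 and 251 CPM in klf1 libraries 1 to 4. The genotypes overlapped widely, and the lowest value of each was far from its mean. The means were 265 ± 40.8 and 218 ± 55.0 CPM (SD, n = 4), with a log2 fold change (klf1 minus WT) of -0.28 and a 95% interval of -0.71 to 0.15 (edgeR adjusted p = 0.232). With library totals the log2 fold change was 0.44, also not called.

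wwtr1 encodes Taz, the second coactivator, which shares Tead partners with Yap1. Its values were 61.2, 64.0, 46.8 and 67.9 CPM in WT and 55.5, 92.8, 91.4 and 94.8 CPM in klf1 libraries. klf1 libraries 2 to 4 lay above every WT library and klf1 library 1 within the WT range. The log2 fold change was 0.48 ± 0.18 (SE) with an edgeR adjusted p of 0.0371, a call that is narrow. It was lost without WT library 1, 2 or 3 or klf1 library 2, 3 or 4 (adjusted p 0.06 to 0.0979) and by limma-voom (0.0514), and the log2 fold change was 0.62 without klf1 library 1. Within each library, the counts of yap1 were 4.13 to 4.99 times those of wwtr1 in WT and 2.24 to 2.94 times in klf1. This ratio depends on gene length but not on library scaling, and it differed between genotypes by -0.77 on the log2 scale, with no overlap (two-sided exact permutation p = 0.0286 from 70 assignments, the smallest the design allows, and 0.0286 adjusted over 5 ratios).

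lats2 encodes a kinase that phosphorylates Yap1 and Wwtr1, and it is itself a Yap target in human cells. It stood at 52.8, 60.7, 32.3 and 51.2 CPM in WT and 73.3, 80.5, 94.2 and 85.3 CPM in klf1 libraries. Every klf1 library was above every WT library. The log2 fold change was 0.76 ± 0.18 (SE, edgeR adjusted p = 0.00261). The sister kinase lats1 moved the other way, from 17.6 ± 1.51 to 12.4 ± 2.70 CPM (log2 fold change -0.50 ± 0.17 SE, edgeR adjusted p = 0.0215), although with library totals it read 0.22 and was not called. It lost its call without WT library 2 (adjusted p = 0.0547). Counts of lats2 were 1.86 to 3.37 times those of lats1 in WT and 6.08 to 8.61 times in klf1 libraries, a log2 difference of 1.32 with no overlap (exact two-sided p = 0.0286, adjusted p = 0.0286). All klf1 libraries lay above WT for lats2 and below WT for lats1. That fixed the exact p of the ratio in advance, so it is not separate support.

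amotl2a and amotl2b encode angiomotin-like proteins, known from zebrafish and human cells to bind Yap and hold it outside the nucleus. They are paralogs of the genome duplication in bony fish, and human AMOTL2 is a Yap target. amotl2a read 98.4, 98.1, 62.3 and 84.9 CPM in WT and 138, 149, 163 and 147 CPM in klf1 libraries (log2 fold change 0.80 ± 0.15 SE, edgeR adjusted p = 0.0007). For amotl2b the values were 18.3, 21.2, 12.1 and 17.9 CPM against 48.0, 35.5, 54.1 and 43.8 CPM (1.39 ± 0.18, edgeR adjusted p = 3.78e-05). Neither gene overlapped between genotypes. The copies did not rise alike: amotl2a had 4.63 to 5.36 times the counts of amotl2b in WT and 2.87 to 4.20 times in klf1 libraries (log2 difference -0.58, exact two-sided p = 0.0286, adjusted p = 0.0286). How reads shared by the copies were counted is not given in the sources used here.

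**Figure D2:**
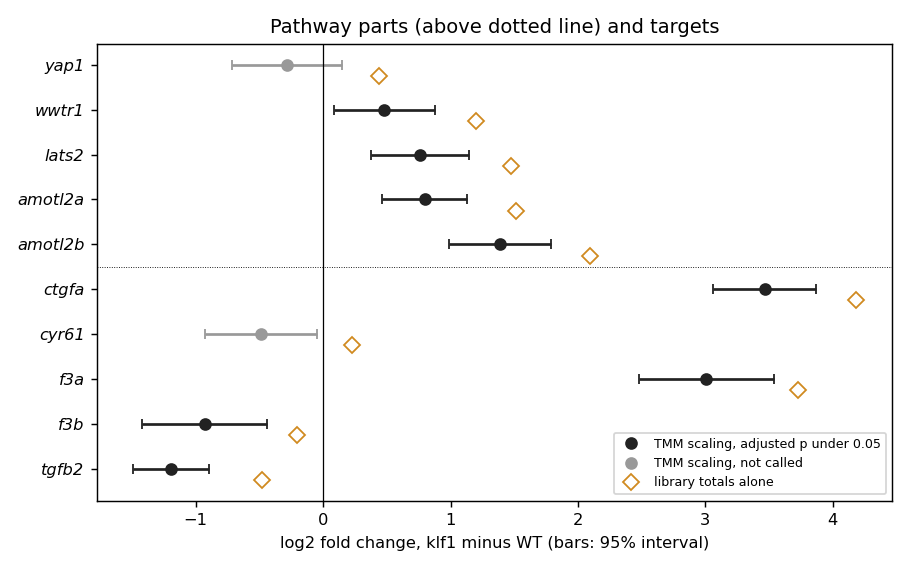
Log2 fold change, klf1 minus WT (x axis), of the 10 members with 95% intervals under TMM scaling (circles, grey where not called) and its value with library totals (diamonds). Library totals move every member to the right, and yap1 and cyr61 cross 0, to 0.44 and 0.23.

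Among the targets, ctgfa changed most. It encodes connective tissue growth factor, a secreted matrix protein of the CCN family and a standard readout of Yap and Taz activity, although TGF-beta signalling also induces it. It read 36.7, 56.3, 47.1 and 41.9 CPM in WT and 442, 427, 569 and 572 CPM in klf1 libraries. The lowest klf1 library was far above the highest WT library. The log2 fold change was 3.47 ± 0.19 (SE, edgeR adjusted p = 5.29e-08), and 3.2% of all tested genes had one as large. It ranged from 3.37 to 4.18 over 19 other settings.

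cyr61 names the other CCN gene most used as a Yap readout. Its row held 113, 110, 61.6 and 108 CPM in WT and 51.4, 81.6, 76.2 and 70.6 CPM in klf1 libraries. WT libraries 1, 2 and 4 were above every klf1 library, and WT library 3 was inside the klf1 range. The log2 fold change was -0.49 (95% interval -0.93 to -0.05), not called by edgeR at an adjusted p of 0.0538, but called lower without WT library 3 (-0.66, 0.00301) or klf1 library 2 (-0.58, 0.0372), and 0.23 and not called with library totals. The symbol itself is uncertain. In RefSeq's gene table (assembly GRCz12tu) cyr61 is an older name of 2 genes, ccn1 and ccn1l2, and the count table has a second row, zgc:85866, whose name belongs to ccn1 alone. Which of the 2 genes the cyr61 row counts is therefore not known, and it may be ccn1l2. The zgc:85866 row went the other way from the cyr61 row. It read 65.8, 65.6, 63.6 and 37.4 CPM in WT and 161, 241, 225 and 373 CPM in klf1 libraries, with no overlap and a log2 fold change of 2.10 ± 0.26 (SE, edgeR adjusted p = 2.16e-05).

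The remaining CCN genes were scarce. ctgfb, the duplicate of ctgfa, was at 0 to 0.252 CPM in WT and 0.131 to 1.85 CPM in klf1 libraries and too low to test. Against the cyr61 row, ctgfa counts were 0.326 to 0.763 times as many in WT and 5.23 to 8.60 times as many in klf1 libraries (log2 difference 3.94, exact two-sided p = 0.0286, adjusted p = 0.0286). Of 6 tested CCN genes, 3 were higher and 0 lower, beside 32.2% and 29.4% of all tested genes. With no filter on low counts 5 were higher. In several settings 1 was lower: with DESeq2 size factors, by DESeq2, and without WT library 3, klf1 library 2 or klf1 library 4. The higher genes were ctgfa, zgc:85866 and wisp3. wisp3 stood at no more than 0.252 CPM in any WT library. That is below the 3 counts that a reading of 0 leaves possible (0.345 to 0.378 CPM in a WT library). wisp3 passed the filter only through the klf1 libraries, so its call is not separate support.

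f3a and f3b are fish copies of the tissue factor gene, whose protein is the cell-surface receptor that starts blood clotting by binding factor VII. They moved in opposite directions. f3a read 4.95, 4.03, 5.43 and 5.15 CPM in WT, from 32 to 45 counts a library, and 31.9, 25.3, 50.9 and 49.4 CPM in klf1 libraries (log2 fold change 3.01 ± 0.24 SE, edgeR adjusted p = 7.54e-07), with no overlap. For f3b the values were 154, 181, 229 and 119 CPM in WT and 86.0, 61.9, 92.0 and 119 CPM in klf1 libraries. Here the lowest WT library and the highest klf1 library met. The log2 fold change of f3b was -0.93 ± 0.22 (SE, edgeR adjusted p = 0.00344), and with library totals it was -0.20 and not called. The ratio of the copies does not depend on that choice. f3a had 0.0226 to 0.0437 times the counts of f3b in WT and 0.372 to 0.553 times in klf1 libraries, a log2 difference of 3.87 (exact two-sided p = 0.0286, adjusted p = 0.0286).

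Other genes of the clotting step that tissue factor starts went both ways. Of 8 tested genes of this list, f3a and f3b included, 2 were higher and 3 lower, beside 32.2% and 29.4% of all tested genes. With library totals 4 were higher and 0 lower, beside 65.1% and 13.3%. tfpia, which encodes an inhibitor of the tissue factor complex, rose from 140 ± 7.40 to 330 ± 67.0 CPM (SD over n = 4, log2 fold change 1.24 ± 0.16 SE). f10, the substrate of that complex, fell from 529 ± 145 to 229 ± 71.5 CPM (-1.21 ± 0.26), and zgc:163025, which RefSeq now names f7l, by 0.86 on the log2 scale. These falls lost their calls with library totals (f10 -0.49, zgc:163025 -0.14). tfpi2 read 149 ± 30.0 and 124 ± 23.8 CPM and missed the threshold, although library totals put it higher (0.45).

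**Figure D3:**
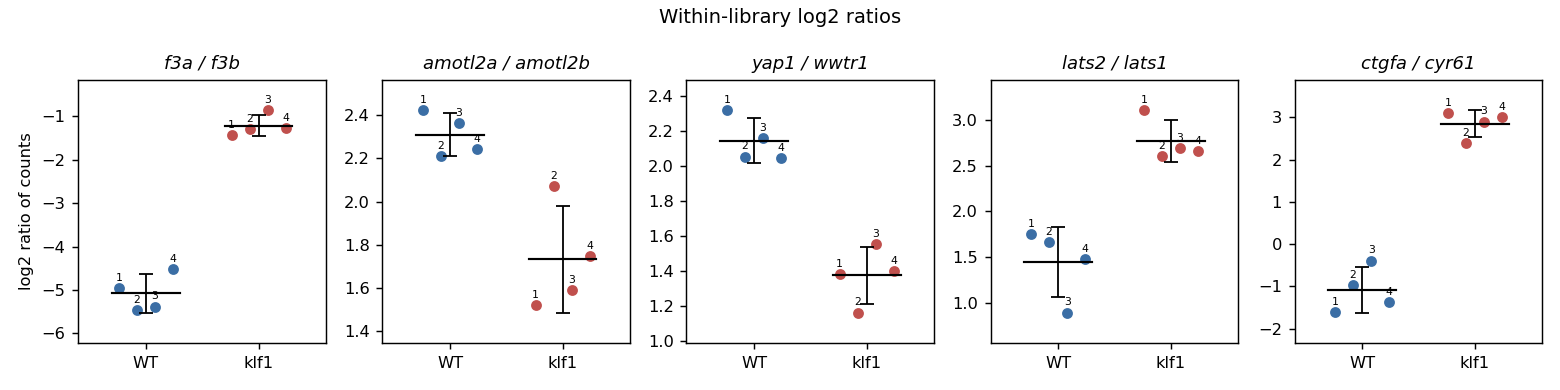
Log2 ratio of raw counts of 2 genes within each library (y axes, separate scales), with mean and SD over 4 libraries of a genotype and numbered replicates. In each of the 5 panels the WT and klf1 libraries do not overlap. Among single genes, 57% of all tested genes do not overlap either, and the share over other gene pairs was not computed.

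tgfb2 encodes a TGF-beta ligand and is a Yap and Taz target in human cells. It read 224, 250, 210 and 239 CPM in WT and 105, 117, 83.6 and 98.2 CPM in klf1 libraries. The groups were far apart and each was tight. The log2 fold change was -1.19 ± 0.14 (SE, edgeR adjusted p = 1.14e-05), and 12.9% of all tested genes had one as low. It kept its call with library totals, at -0.48.

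Genes around this ligand moved in both directions. Of 14 tested genes of the TGF-beta list, tgfb2 included, 6 were higher and 2 lower, beside 32.2% and 29.4% of all tested genes. Their median was 0.51 on the log2 scale. With library totals 12 were higher and 2 lower, beside 65.1% and 13.3% of all tested genes. The sister ligand tgfb3 rose from 114 ± 19.2 to 175 ± 15.3 CPM (SD over n = 4, log2 fold change 0.62 ± 0.15 SE). tgfb1a lay between 21.4 and 32.0 CPM in WT and between 24.2 and 33.5 CPM in klf1 libraries and was not called (0.76 and called higher with library totals). ltbp3, which binds latent TGF-beta, rose by 1.36 ± 0.21, and the response genes skilb, tgfbi and smad7 by 1.31, 1.03 and 0.50. The duplicates of smad3, whose protein carries the signal to the nucleus, diverged: smad3b fell from 55.3 ± 11.5 to 18.2 ± 2.38 CPM (-1.60 ± 0.17), and smad3a rose from 18.9 ± 4.05 to 28.9 ± 4.10 CPM (0.62 ± 0.16).

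The other Hippo genes that could be tested were called higher and lower about as often as all tested genes. Of 69 listed Hippo genes, members included, 36 were in the count table, so much of the pathway was not seen. Beside the 5 members, 31 listed genes were in the count table and 28 were tested, of which 9 were higher, 7 lower and 12 not called, beside 32.2% and 29.4% of all tested genes. Their median was -0.0076 on the log2 scale. With library totals 19 were higher and 1 lower, beside 65.1% and 13.3%. Within the core kinase chain stk3, the Hippo kinase itself, rose from 47.6 ± 2.92 to 66.0 ± 4.81 CPM (SD over n = 4, log2 fold change 0.47 ± 0.11 SE). Its scaffold sav1 fell from 111 ± 17.0 to 63.4 ± 7.53 CPM (-0.80 ± 0.14), a call lost with library totals (-0.09). rassf1, a partner of the Hippo kinases, fell from 102 ± 12.2 to 39.6 ± 6.89 CPM (-1.36 ± 0.15).

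The 3 genes of the Lats partner Mob1 diverged. mob1a rose from 53.9 ± 8.44 to 92.0 ± 11.5 CPM (SD over n = 4, log2 fold change 0.77 ± 0.14 SE). mob1bb fell from 25.6 ± 4.42 to 13.7 ± 1.72 CPM (-0.91 ± 0.15) and mob1ba from 59.0 ± 12.1 to 42.5 ± 7.16 CPM (-0.47 ± 0.16). With library totals mob1bb read -0.19 and mob1ba 0.24, neither called, and the call of mob1ba was also lost with upper-quartile factors and without WT library 3 or klf1 library 2, 3 or 4. The tumour suppressor gene nf2a, whose human counterpart activates Lats, rose from 4.52 ± 1.07 to 7.10 ± 0.469 CPM (0.65 ± 0.19). Its duplicate nf2b lay between 32.8 and 37.5 CPM in WT and between 33.4 and 38.1 CPM in klf1 libraries and was not called (log2 fold change 0.018, 95% interval -0.22 to 0.26; 0.73 and called higher with library totals).

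Of the Tead genes, the DNA-binding partners of Yap1 and Wwtr1, the count table holds tead1a and tead3b. tead1a was at 4.95 to 5.75 CPM in WT and 8.87 to 15.7 CPM in klf1 libraries, with no overlap (log2 fold change 1.08 ± 0.19 SE, edgeR adjusted p = 0.000416). tead3b read 28.5 ± 4.21 and 25.2 ± 3.22 CPM (SD, n = 4), not called, and library totals put it higher (0.54). The steepest rise of the list was that of stk25a, a kinase of the STRIPAK complex, which in human cells restrains the Hippo kinases, from 1.96 to 2.90 CPM in WT to 16.2 to 48.1 CPM in klf1 libraries (3.61 ± 0.34). Its duplicate stk25b fell from 77.7 ± 4.60 to 53.7 ± 2.96 CPM (-0.53 ± 0.11), with no overlap, although with library totals it read 0.18 and was not called. strn3, a scaffold of that complex and the other listed gene with the most counts, read 141 ± 22.3 and 148 ± 10.2 CPM and was not called (0.78 and called higher with library totals).

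The wider set of Yap and Taz targets leaned upward in its median but was not uniform. Beside the members, 15 zebrafish genes of a target signature known from human cells were in the table. Of the 11 tested, 7 were higher and 2 lower, beside 32.2% and 29.4% of all tested genes. With library totals the counts were the same, beside 65.1% and 13.3% of all tested genes, so the share called higher was then near that of all genes. The median was 1.43 on the log2 scale against 0.03 for all genes tested, and 2.15 against 0.75 with library totals. With no filter on low counts the median over all 15 was 0.75. The other 4 were too scarce to test, among them ankrd1b at 0.603 ± 0.129 and 0.388 ± 0.129 CPM (SD, n = 4). myof, a membrane repair protein, read 1.84 to 3.02 CPM in WT and 176 to 229 CPM in klf1 libraries (6.32 ± 0.19 SE). crim1, which encodes a membrane protein that binds growth factors, rose from 96.3 ± 22.7 to 260 ± 48.9 CPM (1.43 ± 0.20). dock5 (2.17 ± 0.31), ccdc80 (2.21 ± 0.38), gadd45bb (1.77 ± 0.42) and rbms3 (0.73 ± 0.19) also rose, as did zgc:85866. igfbp3, a carrier of insulin-like growth factors, fell from 104 ± 8.86 to 27.3 ± 4.78 CPM (-1.92 ± 0.14), and nt5e, a surface enzyme that makes adenosine, by 1.23 ± 0.16. gadd45ba (306 ± 55.6 and 209 ± 103 CPM) and asap1a (29.8 ± 8.79 and 23.1 ± 4.67 CPM) were not called, although asap1a was called lower without WT library 3 (-0.57), and both read above 0 with library totals (0.17 and 0.35).

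**Figure D4:**
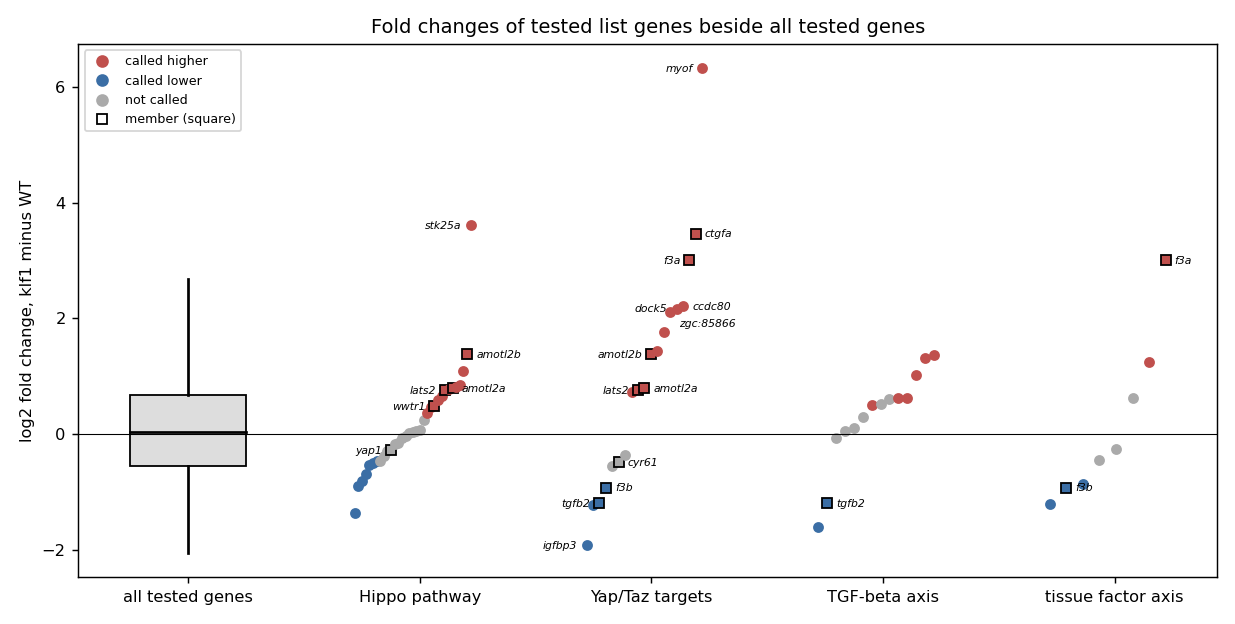
Log2 fold change (y axis) of all tested genes (box, 25th to 75th percentile with the median; lines, 5th to 95th) and of the tested genes of the Hippo pathway, Yap/Taz target, TGF-beta and tissue factor lists, ordered by value and coloured by call. Squares are members. The pathway genes centre near 0 and spread from -1.36 for rassf1 to 3.61 for stk25a. The targets spread from -1.92 for igfbp3 to 6.32 for myof.

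The levels of other cell types also differed between and within genotypes, and their part in these results was not tested. Beside the counts here stand the shares over all tested genes, 32.2% higher and 29.4% lower. With library totals these shares were 65.1% and 13.3%. Markers of the epicardium and of fibroblasts, cells known to express CCN genes, had 10 of 15 tested genes higher and 0 lower (1 lower without WT library 3 and klf1 library 1), with a summed level of 1531 to 2114 CPM in WT and 2474 to 5697 CPM in klf1 libraries. Among them tbx18 (1.27 ± 0.18 SE) and wt1b (1.75 ± 0.24) rose, while tcf21 read 9.55 ± 2.07 and 12.2 ± 4.20 CPM (SD, n = 4) and was not called. The duplicate wt1a (log2 fold change -0.18) and pdgfra (0.22) were not called either. The macrophage and granulocyte list had 20 of 22 tested genes higher and 0 lower, with a sum of 354 to 807 CPM in WT and 1653 to 2151 CPM in klf1 libraries. Endothelial and endocardial markers had 2 of 21 tested genes higher and 9 lower (9 higher and 3 lower with library totals, 1 higher without klf1 library 4). The mural list had 3 of 9 tested genes higher and 2 lower (5 and 2 with library totals), with pdgfrb at 0 in all libraries. Of 10 lymphocyte genes in the table, 5 were tested and all 5 were higher, at a list sum of no more than 19.6 CPM. With at least 50 counts in 4 libraries, 1 was higher. foxp3a, il7r and zap70 stood at no more than 0.735 CPM in any WT library. They passed the filter only through the klf1 libraries, so their calls are not separate support. The thrombocyte list had 1 of 4 higher and 1 lower (1 and 0 with library totals). The erythroid list, with ba1 and ba2 at 0, had 1 of 11 higher and 5 lower, counts that were 4 and 1 with library totals and 0 to 2 and 2 to 4 with any 1 of the 8 libraries left out.

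In each genotype, 1 library was the lowest for several members. WT library 3 was the lowest WT library for 7 of the 10 members (yap1, wwtr1, lats2, amotl2a, amotl2b, cyr61 and tgfb2), although f3a and f3b were highest of WT there (5.43 and 229 CPM). klf1 library 1 was the lowest klf1 library for 5 (yap1, wwtr1, lats2, amotl2a and cyr61). The share of all tested genes that were lowest in these libraries was not computed, so these counts have no background beside them. The same libraries had the lowest endothelial and endocardial marker sums, 2719 CPM in WT library 3 against 3976 to 4229 in the other WT libraries and 2833 CPM in klf1 library 1 against 3707 to 4960 in the other klf1 libraries. They also had the lowest epicardial and fibroblast sums, 1531 and 2474 CPM. Such sums are set mostly by the genes with the most counts, and some single markers went the other way. tcf21 (18.3 CPM), wt1a (3.17), postnb (88.7), pecam1 (30.1) and egfl7 (61.9) were highest of klf1 in klf1 library 1. postnb (22.8 CPM), lum (3.38) and clec14a (100) were highest of WT in WT library 3. The macrophage and granulocyte sum, however, was highest of WT in WT library 3 (807 CPM against 354 to 608). It was lowest of klf1 in klf1 library 1 (1653 CPM). Without both libraries, a setting chosen after seeing the data, cyr61 was called lower (log2 fold change -0.55, edgeR adjusted p = 0.000658). The other members kept their calls.

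**Figure D5:**
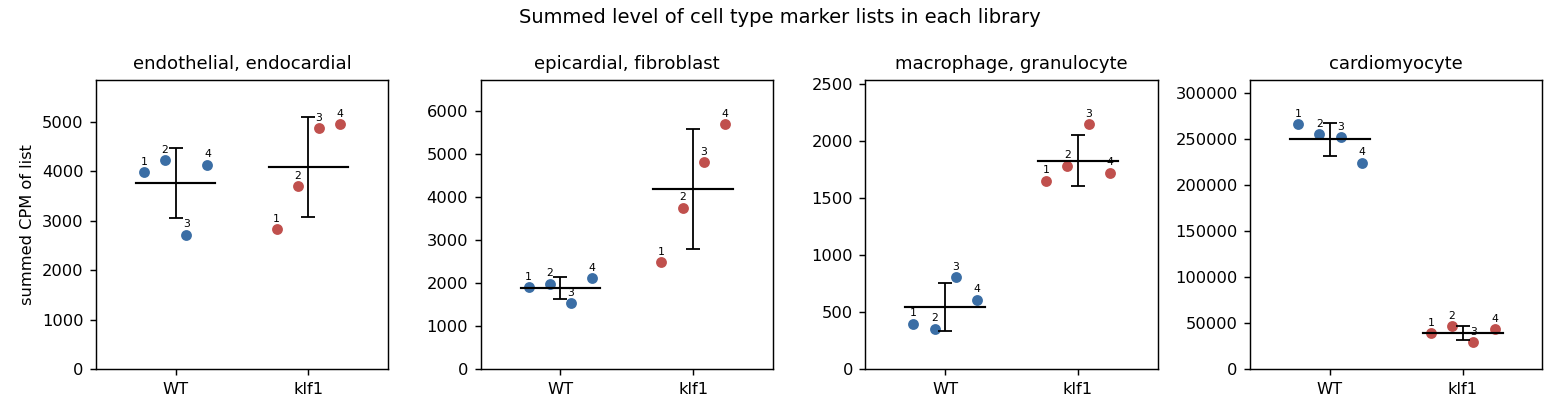
Summed TMM-scaled CPM (y axes, from 0) of the endothelial, epicardial and fibroblast, macrophage and granulocyte, and cardiomyocyte marker lists in each library, with mean and SD over 4 libraries. WT library 3 and klf1 library 1 are lowest in the first and second panels, at 2719 and 2833 CPM and at 1531 and 2474 CPM.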

How the data were processed

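Polyadenylated RNA of whole adult hearts was profiled in 8 of the series' 35 samples; the other 27 were not analysed here. The deposited values are the authors' raw counts per gene and library, whole numbers with no normalization and no pooling, per the file headers. Kapa stranded mRNA kits were used, per the labels' protocols. The submitters' processing notes name danRer10, Bowtie2 2.2.8 and deepTools 3.1.2 without roles; which RNA aligner, counter, annotation and strand mode were used is not given in the sources used here. Groups follow the genotype label. Gene names were read from the joint table, whose columns matched all 8 single-library files exactly. No coordinates or sequences are given, since no genome of that build was used here.

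Counts were filtered with filterByExpr, scaled by TMM and tested with edgeR 4.0.16 (R 4.3.3, glmQLFit robust, glmQLFTest, two-sided, intercept and genotype). Benjamini-Hochberg adjustment was over all 10493 tested genes. The fit was also run on simulated counts in which few genes changed, evenly up and down. That run does not cover a difference as broad as the one here, nor the choice of scaling. SE is the log2 fold change over the root of F, and 95% intervals use the test's degrees of freedom; both are approximate. Ratios of raw counts (0.5 added) were compared by exact permutation over the 70 assignments of 4 against 4. The ratio of ctgfa to ctgfb was planned and left out because ctgfb did not pass the filter. Totals are 9829896 to 13083853 counts; the limit from a count of 0 (3 counts) covers counting error only. No library repeats another: within a genotype, chi-square statistics per degree of freedom were 6.71 to 45.7. Pairs with WT library 3 were at 36.2 to 43.1, and the other WT pairs at 6.71 to 9.37. Pairs with klf1 library 1 were at 41.3 to 45.7, and the other klf1 pairs at 17.0 to 36.1. The labels give no batch.

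The members and the 13 lists were chosen with earlier results of these data known. One planned gene of the TGF-beta list is not reported here. Of the 298 other entries, 205 were in the table, 12 of them by an older name in RefSeq. Named are all members, up to 6 called genes with the smallest adjusted p and 3 with the most counts per pathway list, and, chosen after their values were seen, further core genes such as stk3, lats1, mob1a, mob1ba, nf2a, nf2b, stk25b, smad3a, tead3b, tgfb1a, smad7, ctgfb, ankrd1b and tcf21 and the members of small counts. Alternatives were other scalings, filters and tests (DESeq2 1.42.0, limma 3.58.1 voom), and each library left out.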

Additional observations from a re-analysis of the deposited data

Results flagged for a closer look

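In 20 groups of 4 libraries (10 members in 2 genotypes), 2 had a library far from the other 3, and chance flags about 1 in 20 groups. wwtr1 in klf1 library 1 read 55.5 CPM, against 91.4 to 94.8 CPM in the other klf1 libraries. cyr61 in WT library 3 read 61.6 CPM, against 108 to 113 CPM in the other WT libraries. These are the libraries with the lowest endothelial and endocardial marker sums of their genotype (2833 and 2719 CPM). Not every single marker was low there: pecam1 and egfl7 were highest of klf1 in klf1 library 1, and clec14a highest of WT in WT library 3. The part of those cells in the values was not tested.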

How the results depend on the processing

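Over 19 other settings each, lats2, amotl2a, amotl2b, ctgfa, f3a and tgfb2 kept their direction and call, and all 5 count ratios kept their direction without each library in turn and with 2 counts added. Library totals alone changed most: 6836 genes were higher and 1398 lower, members called lower were 1, the log2 fold changes of yap1, cyr61 and f3b were 0.44, 0.23 and -0.20, and those of lats1, mob1ba, tead3b, tfpi2, gadd45ba, asap1a and stk25b were 0.22, 0.24, 0.54, 0.45, 0.17, 0.35 and 0.18. The other Hippo genes then had 19 higher, 1 lower and a median of 0.71 (0.068 with upper-quartile factors, 0.065 with no filter). The other targets had a median of 2.15 (0.75 with no filter, which adds scarce genes). The tissue factor, endothelial, thrombocyte and erythroid lists had medians of 0.35, 0.47, 0.40 and 0.43 (tissue factor 0.20 with no filter). With library totals the median of all tested genes was 0.75. cyr61 was called lower with DESeq2 size factors (-0.51), by DESeq2 (-0.51) and without WT library 3 and klf1 library 1 together (-0.55), a setting chosen after seeing the data. wwtr1 was not called by limma-voom (0.46). Without each library in turn, the range was 0.37 to 0.62 for wwtr1, -0.66 to -0.38 for cyr61, -0.10 to 0.030 for the median of the other Hippo genes, -0.048 to 0.12 for strn3 -0.052 to 0.14 for tgfb1a and -0.028 to 0.043 for nf2b. strn3 and tgfb1a changed sign without WT library 3 (alone or with klf1 library 1, then -0.055 and -0.038), and tgfb1a without klf1 library 4 (-0.049); nf2b was -0.0057 with DESeq2 size factors and by DESeq2 and -0.065 without both libraries. The cause was not tested. The labels number the RNA libraries without a pairing, but the column headers number them 1 to 4 in each genotype. Same-numbered libraries did not deviate together (correlations -0.079, 0.079, -0.19 and 0.093; WT library 3 correlated best with klf1 library 1, at 0.34), so the numbers pair nothing known. With the header number as a replicate block, chosen after seeing the data, 3215 genes were called higher and 2896 lower. In that setting wwtr1 was not called (0.46, edgeR adjusted p = 0.0558) and gadd45ba was called lower (-0.73). No other member or named gene of the Hippo, target, CCN, TGF-beta and tissue factor lists changed its call. Calls of single cell type markers were not compared. Depth limits f3a in WT (32 to 45 counts a library), ctgfb and wisp3.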

Other observations

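For each called member, the tested genes whose centred log2 CPM over the 8 libraries lay closest to it were listed by root mean square difference, a description that the genotype difference dominates. lats2 and amotl2a were among the 3 closest genes of each other (0.09 on the log2 scale), and rfc1 was among the 3 closest of both (0.07 and 0.08). Closest to ctgfa were lin7b (0.17), net1 (0.21) and gabrr1 (0.22), to f3a emp3b (0.16), to f3b efemp2b (0.20), to tgfb2 zgc:174864 (0.08), to amotl2b macc1 (0.10) and to wwtr1 nkd1 (0.05). These log2 CPM had 2 counts added, which shrinks changes of scarce genes. The fitted log2 fold changes of lin7b, net1 and gabrr1 were 4.10, 3.27 and 7.24, against 3.47 for ctgfa.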
